A study of Mus musculus with 12 samples.

Results

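The regions described here are clusters of crosslinked RNA in mRNA genes that the authors listed for Rbm38 and for neither form of Puf60. They were chosen by which clusters each deposited table lists: a cluster of the Rbm38 table was taken if its centre lay in exactly 1 gene body, a protein-coding one, and if no cluster of either Puf60 table overlapped it by 1 nt or more on the same inferred strand. This gave 24677 Rbm38-only clusters in 5543 genes, of 49260 clusters in the Rbm38 table and 124941 in all 3 tables. They made up 63.3% of the 39008 Rbm38 clusters in single protein-coding genes. The other 14331 overlapped a Puf60 cluster, 8543 of them in both Puf60 tables. Of the remaining Rbm38 clusters, 4633 had their centre in no gene, 3238 in several genes and 2381 in a single gene of another kind.

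Individual-nucleotide crosslinking and immunoprecipitation (iCLIP) was run on N2A cells, a mouse neuroblastoma line, with 12 libraries in all. Rbm38 had 3 CLIP libraries and 1 size-matched input, all from cells induced for 24 h. Puf60 including exon 5 had 3 CLIP libraries induced for 48 h and 1 input induced for 24 h, and Puf60 lacking exon 5 had 3 CLIP libraries and 1 input, all at 24 h. Every line carried its transgene through the Flp-in system under doxycycline control, received 1 µg/ml doxycycline, was crosslinked at 150 mJ/cm2 and was pulled down with an anti-Flag antibody, so each protein was studied as an induced, tagged copy in cells that also have their own genes for it. An input is RNA of the same size range taken from the lysate without the antibody. Between Rbm38 and Puf60 with exon 5, protein and induction time cannot be told apart.

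Rbm38 is a small protein with a single RNA recognition motif, encoded by a p53 target gene. It is known for binding GU-rich and AU-rich stretches, often in 3′ untranslated regions, where it alters the stability or translation of mRNAs such as that of Cdkn1a, and for regulating alternative exons during erythroid and muscle differentiation. Puf60 is a splicing factor known for contacts with the pyrimidine-rich stretch ahead of 3′ splice sites. A cluster missing from a Puf60 table is a stretch that the authors did not list there, which is not the same as a stretch that Puf60 does not contact.

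The deposited tables give 1 log2 fold of CLIP over input, 1 p-value and 1 adjusted p-value per cluster, with no value per library. Values in each sample, the spread between replicates and the depth are therefore unknown, and nothing could be tested over replicates. A cluster is called enriched here at a deposited adjusted p under 0.05. Percentages carry 95% Wilson intervals that cover counting error only, and clusters of 1 gene are not independent. As a check of the cell line, 7 of 16 neuroblast marker genes held an Rbm38-only cluster (Chga, Chgb, Hand2, Map2, Phox2a, Stmn2 and Tubb3), and the other 9, among them Th and Mycn, held no Rbm38 cluster in a single gene. Of the 7 genes, 4 held an enriched one, with 10 of 23 clusters enriched (43.5%). Of 14 glial, fibroblast, endothelial and blood markers, 4 held an Rbm38 cluster in a single gene and 2 of these an Rbm38-only one. These 2 held 1 enriched cluster each, Col1a1 at a log2 fold of 2.21 and Ptprc at 2.17 in the authors' deposited table. A cluster needs reads and a target site, so its absence is no measure of expression.

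Sequence could be read for the 86 Rbm38-only clusters, in 81 genes, that lie wholly inside one of the 32851 promoter windows of RefSeq on GRCm38.p6, the same assembly as mm10. They are 0.349% of the set, and 22 were enriched while 64 were not. The pentamer GTGTG was present on the cluster's strand in 9 of the 22 enriched clusters (40.9%, 23.3 to 61.3) and in 2 of the 64 others (3.13%, 0.861 to 10.7). The deposited adjusted p is 1 for some clusters with a small p, and with the adjustment computed again over the whole table, a setting chosen after seeing the data, the counts were 9 of 34 (26.5%, 14.6 to 43.1) and 2 of 52 (3.85%, 1.06 to 13.0). Among 50-nt pieces of all promoter windows, taken on both strands, 5.22% held it. Sequences of 8 of these 9 enriched clusters are shown as examples of the motif, 5′ to 3′ on the cluster's strand, in DNA letters (T stands for the U of RNA), with every GTGTG in capitals. Clusters that reach past a start site, lie within 2000 nt of a gene end or are wider than 50 nt are shown as 30 nt of their length.
Ttc3, chr16:94371101-94371130, plus strand: gggggtcttttGTGTGcgcgtcgcctggcg
Cbfb, chr8:105198001-105198050, plus strand: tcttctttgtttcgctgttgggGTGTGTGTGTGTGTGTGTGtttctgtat
Atp1b3, chr9:96363686-96363715, minus strand: gggcGTGTGTGggttgcagggacGTGTGac
Cmip, chr8:117423451-117423500, plus strand: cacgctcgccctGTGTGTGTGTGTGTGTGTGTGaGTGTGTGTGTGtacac
Tcf20, chr15:82898986-82899035, minus strand: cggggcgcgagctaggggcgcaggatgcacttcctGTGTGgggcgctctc
Sptbn1, chr11:30267248-30267277, minus strand: ttggggcggggatGTGTGttgttggcaaga
Far1, chr7:113565101-113565150, plus strand: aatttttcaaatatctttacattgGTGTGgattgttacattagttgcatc
Ddx42, chr11:106230460-106230489, plus strand: tccttttctatctGTGTGaccaattaatac

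The log2 fold of these 8 ran from 2.86 (Ttc3) through 2.63 (Cbfb), 2.42 (Atp1b3), 2.29 (Cmip), 2.12 (Tcf20), 2.07 (Sptbn1) and 1.94 (Far1) to 1.70 (Ddx42) in the authors' deposited table. Cbfb encodes the shared partner of the Runx factors, Sptbn1 a spectrin and Ddx42 an RNA helicase. In Cmip and Cbfb the motif lay in a GT repeat, with 13 and 8 overlapping copies over the whole cluster, and the sources used here do not give how reads within repeats were placed. Of the 8, Far1 lay nearest to a 3′ end, at 6380 nt.

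The comparison clusters are printed for contrast. Mafg and Hnrnpf were enriched without the motif (2.81 and 2.15 in the authors' deposited table), and both stretches are rich in T. Elavl4 (1.81) and Cbx7 (0.86) were not enriched and lacked it, and Ltbp4 (-0.30) and Dst (-1.19) were the 2 that were not enriched and held it once, all in the authors' deposited table. Elavl4 and Cbx7 have a deposited adjusted p of 1 beside a small p-value, and both pass the threshold when the adjustment is computed again.
Mafg, chr11:120625146-120625175, minus strand: ttgtgatatataaggttttctttattttgt
Hnrnpf, chr6:117908251-117908300, plus strand: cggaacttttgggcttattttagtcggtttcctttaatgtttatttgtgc
Elavl4, chr4:110286836-110286885, minus strand: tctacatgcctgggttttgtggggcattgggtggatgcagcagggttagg
Cbx7, chr15:79932786-79932835, minus strand: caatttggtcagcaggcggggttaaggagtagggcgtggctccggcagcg
Ltbp4, chr7:27329736-27329785, minus strand: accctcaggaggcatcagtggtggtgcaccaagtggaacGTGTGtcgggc
Dst, chr1:34135151-34135200, plus strand: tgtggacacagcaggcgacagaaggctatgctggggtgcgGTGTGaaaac

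In all, 6 motifs were searched on the cluster's strand. The hexamer TGTGTG, which contains GTGTG, was in 8 of 22 enriched clusters (36.4%) and in 0 of 64 others, against 1.92% of promoter pieces. The reverse complement CACAC was in 1 of 22 and 2 of 64, against 5.22% of promoter pieces. TTTTT and TGTTT were each in 4 of 22 (18.2%) and 2 of 64, against 5.22% and 6.13% of promoter pieces, and GAAGAA in 0 of 22 and 2 of 64, against 2.04%. Rbm38 clusters that overlap a Puf60 cluster held GTGTG in 2 of 27 enriched (7.41%, 2.06 to 23.4) and 3 of 47 other cases (6.38%). In the Puf60 tables, GTGTG was in 0 of 37 enriched and 8 of 100 other clusters with exon 5, and in 0 of 36 enriched and 11 of 114 other clusters (9.65%) without it. These windows hold sequence around annotated start sites, so they are no sample of the whole set. A match describes the letters and is not a shown site, and the motifs were counted with earlier results on these data known.

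Over the whole set, 11987 Rbm38-only clusters were enriched over input (48.6%, 48.0 to 49.2), in 4329 genes, where the whole Rbm38 table had 50.9%. With the adjustment computed again over that table, 14395 were. The share is thus near that of the table. The median log2 fold was 1.05 (quartiles -0.14 and 2.39), a 2.08-fold ratio, from the authors' deposited table. Enriched clusters had a median of 2.42 (quartiles 1.88 and 2.99), a 5.35-fold ratio, and the 12690 others had a median of -0.12 (-0.57 and 0.37), from the authors' deposited table. The values formed a lower group around 0 and an upper one around the median of the enriched clusters. Clusters that overlap a Puf60 cluster were enriched in 59.3% of cases, with a median of 1.24 in the authors' deposited table, and their enriched members had a median of 2.23 (1.44 and 3.24). Listing and log2 fold come from the same reads, so these values describe the set and are given with no test.

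**Figure D1:**
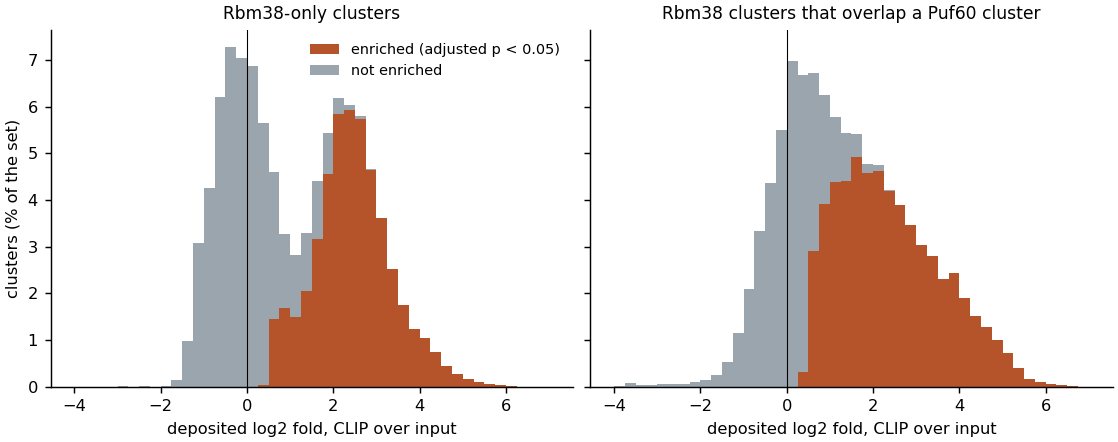
Deposited log2 fold of Rbm38 CLIP over input (x axis) against the percentage of clusters in each interval (y axis), for Rbm38-only clusters at left and Rbm38 clusters that overlap a Puf60 cluster at right, with enriched clusters stacked under those not enriched. Rbm38-only clusters fall into groups around 0 and around 2.42, the median of the enriched ones, and 16 overlapping clusters lie outside the axis.

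The clusters were short. Of the set, 86.4% spanned 50 nt, the smallest width in the tables, against 56.5% of those that overlap a Puf60 cluster, and 74 clusters were 300 nt or wider, against 992. Wider Rbm38-only clusters were more often enriched. The share was 44.8% at 50 nt, 68.5% at 100 nt, 82.1% at 150 to 250 nt and 90.5% (67 of 74) at 300 nt or more, and the median log2 fold at these widths was 0.75, 2.37, 3.42 and 4.31, from the authors' deposited table. A narrow cluster also has less room to meet a Puf60 cluster, so the rule itself favours short ones.

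Where the clusters lie in their genes was not used to choose them. Enriched Rbm38-only clusters gathered at the 3′ end of the gene. Of 11165 enriched clusters on the gene's strand, 4319 had their centre within 2000 nt of the 3′ end (38.7%, 37.8 to 39.6), and the median distance was 4000 nt. Of 12070 clusters that were not enriched, 903 did (7.48%, 7.03 to 7.96), with a median of 26827 nt. With the adjustment computed again, 4484 of 13452 enriched clusters (33.3%) and 738 of 9783 others (7.54%) lay there. The last 2000 nt made up on average 7.47% and 5.28% of the gene bodies concerned, against which the shares of 38.7% and 7.48% can be read. At the 5′ end the shares within 2000 nt were 4.33% of enriched and 5.49% of other clusters. Gene ends are those of the RefSeq gene body, and exons were not used here.

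The share enriched and the log2 fold were both highest next to the 3′ end. Within 250 nt of it 1180 of 1242 clusters were enriched (93.7 to 96.1%), and their median log2 fold was 3.03, from the authors' deposited table. From 250 to 500 nt the share was 87.4%, from 500 to 1000 nt 81.0%, from 1000 to 2000 nt 73.1% and from 2000 to 5000 nt 57.5%, and the median log2 fold was 2.67, 2.40, 2.20 and 1.64 in the authors' deposited table. Beyond 5000 nt the share stayed between 33.1% and 36.7%, with medians between 0.28 and 0.72. Cluster width fell along the same axis. Clusters of 100 nt or wider made up 30.5% within 250 nt of the end and between 8.66% and 12.1% beyond 5000 nt. The part of width in these differences was not tested. With gene bodies cut into 10 equal parts, the last part held 46.2% of enriched and 13.4% of other clusters, and the first part 9.91% and 12.9%. Of 3784 genes with an enriched cluster on their strand, 2102 had the strongest one within 2000 nt of the 3′ end (55.5%, 54.0 to 57.1), and 1131 within 500 nt.

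**Figure D2:**
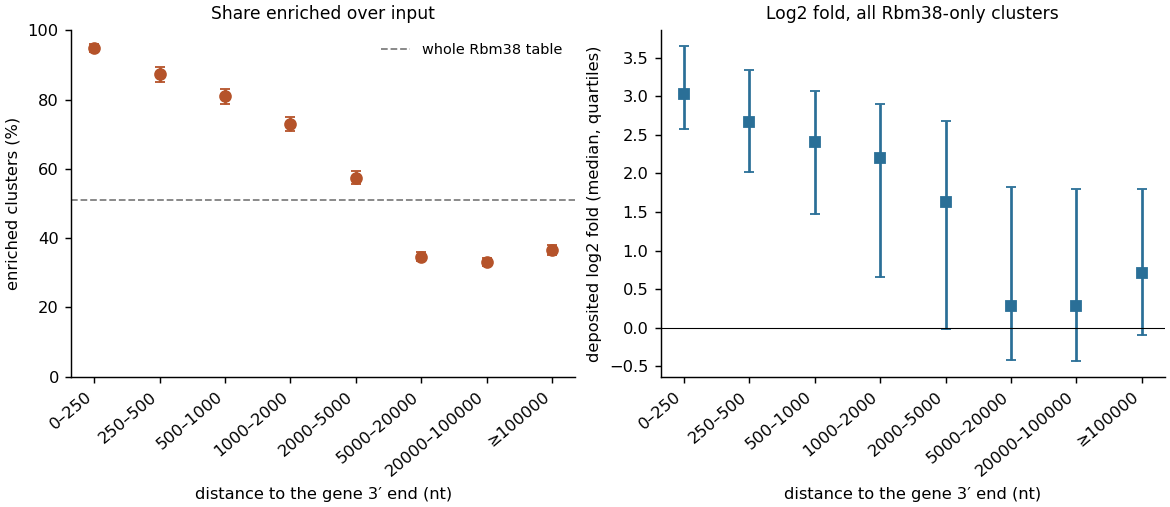
Rbm38-only clusters on the gene's strand by distance of the cluster centre to the gene's 3′ end (x axis, nt), with the percentage enriched and its 95% Wilson interval at left and the median deposited log2 fold with its quartiles at right. The share enriched is 87.4% from 250 to 500 nt and 34.6% from 5000 to 20000 nt, and the dashed line marks the 50.9% of the whole Rbm38 table.

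**Figure D3:**
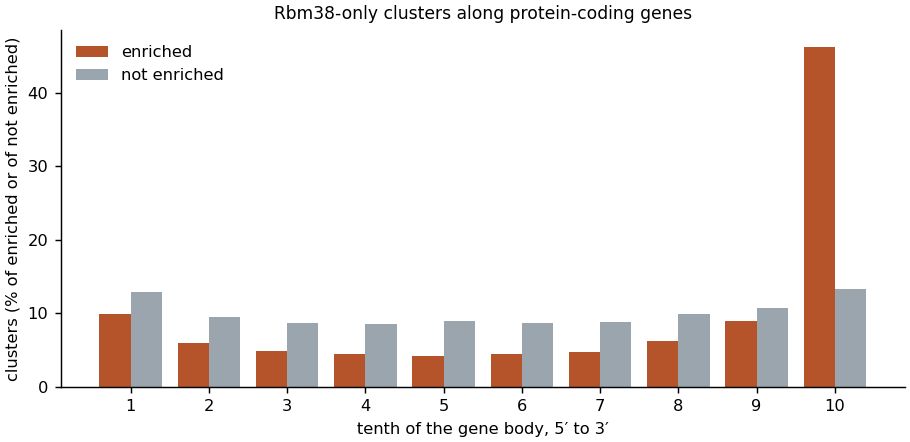
Percentage of enriched and of other Rbm38-only clusters (y axis) in each of 10 equal parts of the gene body from 5′ to 3′ (x axis). The last part holds 46.2% of the enriched clusters and 13.4% of the others.

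Rbm38 clusters that overlap a Puf60 cluster lay at the 3′ end more often still, with 3813 of 7817 enriched ones within 2000 nt (48.8%, 47.7 to 49.9) and 807 of 5354 others (15.1%). Averaged over clusters, the last 2000 nt made up 12.3% and 13.6% of the gene bodies here, against 7.47% and 5.28% for Rbm38-only clusters. A gene counts once per cluster in these averages, so they do not compare gene lengths. In the 1677 genes that hold enriched clusters of both kinds, the share within 2000 nt was 30.5% (29.4 to 31.6) of the 6937 Rbm38-only clusters and 43.9% (42.7 to 45.2) of the 5885 overlapping ones, where the last 2000 nt made up on average 6.43% and 8.64% of the gene bodies. The intervals do not meet, but they count clusters and leave out the spread between libraries. A position at the 3′ end was thus not particular to the Rbm38-only set.

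The strongest single sites were named by log2 fold, 1 per gene, among enriched clusters of named genes. Ap2s1, which encodes a subunit of the AP2 endocytic adaptor, had the highest at 6.49 (chr7:16749201-16749300, plus strand), 39 nt from the 3′ end, in the authors' deposited table. Ephb1, an ephrin receptor gene, followed at 6.18 (chr9:101972136-101972185, minus strand) and lay inside the gene, 50033 nt from its 3′ end, in the authors' deposited table. St3gal5, which encodes the sialyltransferase that makes ganglioside GM3, had 6.15 (chr6:72154301-72154500, plus strand) at 170 nt, and Armcx2, an armadillo-repeat gene, had 5.88 (chrX:134804186-134804535, minus strand) at 219 nt, in the authors' deposited table. Adamts4, an extracellular protease gene whose strand was not known here, had 5.87 in the authors' deposited table.

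Junb, which encodes an AP-1 transcription factor subunit, had 5.82 at 77 nt from the 3′ end, and Zdhhc7, a palmitoyltransferase gene, had 5.81 at 995 nt, in the authors' deposited table. Cemip2, a cell surface hyaluronidase gene, had 5.80 at 259 nt, and Hk2, which encodes the glycolytic enzyme hexokinase 2, had 5.79 at 286 nt, in the authors' deposited table. Farsa, a phenylalanyl-tRNA synthetase subunit gene, had 5.77 at 56 nt, Mcam, a cell adhesion gene, 5.77 at 101 nt and Tmem101 5.77 at 315 nt, in the authors' deposited table. Of these 12 clusters, 10 lay within 2000 nt of the 3′ end. For 10, no Puf60 cluster of the same strand lay within 5000 nt, as for 25.4% of the whole set, which was not taken 1 per gene. Puf60 clusters of a gene were counted, here and below, only where their centre lay in no other gene. By that count Ap2s1, Armcx2, Adamts4, Junb, Zdhhc7, Farsa, Mcam and Tmem101 held none. The same held for 32 of the 100 strongest clusters on the gene's strand, taken 1 per gene. Counted by gene, 24.8% of the 5543 genes held none, and 8.83% of the whole set lay in them.

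At the other end of the scale, the log2 fold of the whole set reached down to -3.93 in the authors' deposited table. In named genes, the lowest values on the gene's strand were -2.77 in Rere, -2.35 in Lsamp, -2.26 in Rps19, -2.06 in Gnao1 and -1.89 in Dync1h1 in the authors' deposited table. These lay between 1385 nt (Rps19) and 963928 nt (Lsamp) from the 3′ end. Those of Rere, Rps19 and Dync1h1 touched a Puf60 cluster, with a gap of 0 nt. Rere encodes a transcriptional corepressor, Rps19 a ribosomal protein, Gnao1 a G protein subunit and Dync1h1 the heavy chain of cytoplasmic dynein.

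Some genes carried a series of enriched clusters along their 3′ end. Ostm1, a lysosomal membrane protein gene, held 9 Rbm38-only clusters, all enriched and all within 2000 nt of the end. Their log2 fold was between 1.34 and 4.88, with the highest 61 nt from the end, in the authors' deposited table. B3gnt2, which encodes a glycosyltransferase that extends poly-N-acetyllactosamine, had 8 of 8, between 1.82 and 4.14. Ugcg, which encodes glucosylceramide synthase, had 10 enriched clusters, 8 of them there, between 2.08 and 3.81. Zfp871, a zinc finger gene, had 28 of 32 enriched, 8 of them there, between 2.06 and 3.27, and Pcdh1, a protocadherin gene, had 17 of 29, 9 of them there, between 1.33 and 3.68, in the authors' deposited table. Puf60 clusters of either form, with their centre in no other gene, numbered 2 in Ostm1, 1 in B3gnt2, 2 in Ugcg, 11 in Zfp871 and 28 in Pcdh1. Neighbouring clusters in these series are separated by stretches without an Rbm38-only cluster, and their reads come from the same transcripts. Rbm38 clusters that overlap a Puf60 cluster are left out of the series. They numbered 1 in Ostm1, 9 in Pcdh1, 0 in B3gnt2, 1 in Ugcg and 4 in Zfp871, counted over the whole gene.

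**Figure D4:**
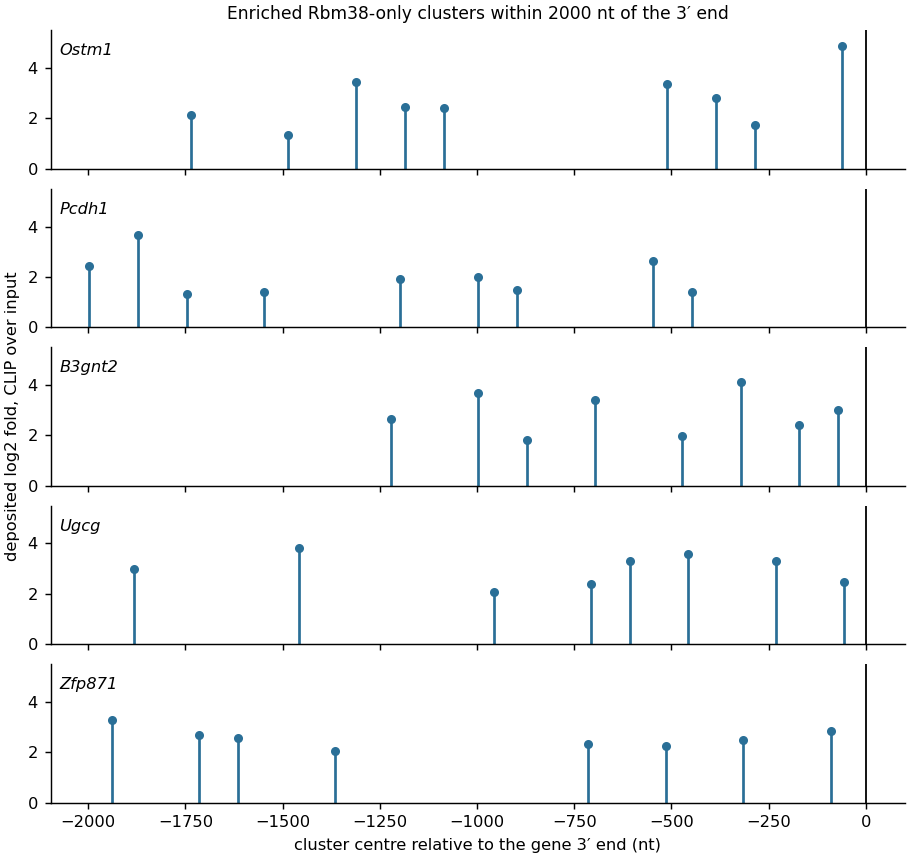
Deposited log2 fold (y axis) of each enriched Rbm38-only cluster within 2000 nt of the 3′ end of Ostm1, Pcdh1, B3gnt2, Ugcg and Zfp871, placed by the distance of its centre from the end (x axis, nt, end at 0). Each gene holds 8 or 9 such clusters, and the highest is that of Ostm1 at 4.88.

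Crowded genes, those with 50 or more Rbm38-only clusters, are described next. The 5543 genes held a median of 2 Rbm38-only clusters, 2263 held 1, and 40 held 50 or more, which together made up 4162 clusters (16.9%). Of those 4162, 1601 were enriched (38.5%, against 50.9% in the whole table). Samd5 led with 386 clusters, 96 enriched (24.9%), with a median log2 fold of 0.54 and a maximum of 2.95, from the authors' deposited table. Pcbp3, which encodes a poly(C)-binding protein, had 144 of 355 enriched (40.6%), and Maml3, a Notch coactivator gene, 145 of 319 (45.5%).

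Gse1 followed with 98 of 193, Rere with 75 of 168, Efna5 with 64 of 150, Grip1 with 45 of 139, Cmip with 73 of 125, Dgki with 43 of 122 and Ankrd11 with 75 of 118. Efna5 encodes an ephrin ligand, Grip1 a synaptic scaffold and Ankrd11 a chromatin regulator. In these 10 genes the enriched clusters within 2000 nt of the 3′ end numbered 5 in Cmip, 2 each in Rere and Efna5, 1 each in Maml3 and Gse1 and 0 in the other 5. Their strongest clusters ranged from 2.95 (Samd5) to 4.44 (Efna5) in the authors' deposited table. Crowded genes were long, with a median body of 214826 nt against 32880 nt for the other genes, and the RNA each gene yields was not used here.

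The genes differed by what the Puf60 tables list in them. In 1372 genes (24.8%) neither Puf60 table listed a cluster with its centre in that gene and no other. Puf60 clusters where genes overlap are thus not counted. These genes held 2179 Rbm38-only clusters, of which 1627 were enriched (74.7%), with a median log2 fold of 2.59, from the authors' deposited table. In 1525 genes Puf60 clusters lay elsewhere than any Rbm38 cluster, and 2295 of 4124 clusters were enriched (55.6%, median 1.80). In the other 2646 genes further Rbm38 clusters did overlap Puf60 ones, and 8065 of 18374 were enriched (43.9%, median 0.76). Of enriched clusters on the gene's strand, 69.3%, 51.2% and 30.3% lay within 2000 nt of the 3′ end in the 3 classes. The median gene had 1, 2 and 3 Rbm38-only clusters and a body of 24414, 38545 and 36017 nt. These classes use the same listing as the choice of clusters, and the part of gene length and RNA level in their differences was not tested.

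Puf60 clusters were often near. The gap to the nearest Puf60 cluster of the same strand had a median of 750 nt, and 42.2% of Rbm38-only clusters had one within 500 nt. Just inside the rule stood 2141 clusters that touched a Puf60 cluster, of which 45.3% were enriched, and their median log2 fold was 0.66, from the authors' deposited table. Outside it, 10729 clusters overlapped a Puf60 cluster by 50 nt, the smallest overlap the grid allows. Of these 56.0% were enriched, with a median of 1.11. They are not a set of borderline cases, since an overlap of 50 nt wholly covers a cluster of 50 nt. Of all 14331 overlapping clusters, 8102 had that width. Touching clusters and this group therefore do not compare the sides of a narrow boundary. At a gap of 50 nt the share enriched was 53.3%, from 500 nt to under 5000 nt 41.6%, and at 5000 nt or more 55.0%. The strongest touching clusters were in Cyp51 (5.48), which encodes lanosterol demethylase of cholesterol synthesis, Fto (5.35), an RNA demethylase gene, Ostc (5.26) and Cand1 (4.95) in the authors' deposited table. The strongest with a 50-nt overlap, which the rule leaves out, were in Grn (6.50), Mapt (6.43), Sec61g (6.40) and Dnmt1 (6.33).

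Gene lists were read against the set as a whole, in which 48.6% of clusters were enriched and 38.7% of the enriched ones lay within 2000 nt of the 3′ end. Of all 5543 genes with an Rbm38-only cluster, 4329 held an enriched one, so most genes of any list with a cluster can hold one. Rbm38 itself comes first, since its transgene was induced. Its gene held 5 Rbm38-only clusters, 4 of them enriched, at 3.35, 1.63, 2.41 and 2.73 in the authors' deposited table, and no Puf60 cluster. The first 3 of these lay within 2000 nt of the 5′ end and the last 1083 nt from the 3′ end, and transgene and endogenous reads cannot be told apart. Puf60 held no Rbm38-only cluster.

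Transcripts reported as Rbm38 targets in earlier work, mostly in human cells, come next. Of 15 genes, 10 held an Rbm38-only cluster and all 10 an enriched one, with 31 of 56 clusters enriched (55.4%, median log2 fold 1.23 in the authors' deposited table). E2f1, a cell cycle transcription factor gene, had 7 of 9 enriched, all 7 within 2000 nt of the 3′ end, with a highest value of 4.43 at 861 nt. Epb41, the protein 4.1R gene, had 7 of 7, with 3.80 at 1048 nt, in the authors' deposited table. Grsf1, an RNA-binding protein gene, had 3 of 3, with 2.81 at 12128 nt.

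Cdkn1a, the p21 cell cycle inhibitor gene, had 2 of 2 enriched near its 3′ end with a maximum log2 fold of 2.80 and no Puf60 cluster, and Mdm2, the ubiquitin ligase gene for p53, had 4 of 4 with a highest of 2.20, in the authors' deposited table. Trp53 had 1 of 2 (1.60), Elavl1 2 of 12 (2.76) and Gdf15 1 of 2 (1.25). These 5 genes are on the list but were picked out after their values were seen. Fgfr2, Hif1a, Trp63 and Trp73 held no Rbm38 cluster in a single gene.

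In the p53 pathway list 15 of 39 genes held a cluster and 14 an enriched one, with 41 of 66 clusters enriched (62.1%) and 26 of 39 of those on the gene's strand within 2000 nt of the 3′ end (66.7%). Ccng2, a cyclin G gene, had 3 of 3 enriched and a maximum log2 fold of 4.84 at 180 nt, in the authors' deposited table. Trp53inp2, an autophagy gene, had 5 of 5 (4.77 at 446 nt) and Atm, the DNA damage kinase gene, 4 of 5 (3.69 at 2289 nt). AU-rich element mRNAs and the proteins that bind them had 52 of 115 clusters enriched (45.2%) in 18 of 29 genes. Beside Junb, these were led by Rc3h2 (4.64), Elavl3 (3.86) and Zfp36l2 (3.73) in the authors' deposited table. Rc3h2 and Zfp36l2 encode proteins that promote mRNA decay, and Elavl3 a neuronal Hu protein, with 12 of its 18 clusters enriched.

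Regulators that act on 3′ untranslated regions held enriched clusters in 25 of 35 genes, 139 of 264 clusters (52.7%). Cpeb2 had 4.42 at 1848 nt from the 3′ end, Tnrc6b 3.94 at 2060 nt and Cnot6 3.72 at 1339 nt, in the authors' deposited table. They encode a cytoplasmic polyadenylation factor, a microRNA silencing scaffold and a deadenylase. In Cpeb2, 13 of 15 clusters were enriched.

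Neurite and axon cytoskeleton genes had a low share, 178 of 431 clusters (41.3%), with enriched ones in 24 of 37 genes and 18.1% of those near the 3′ end. Map1b alone held 109 of the clusters, 40 of them enriched and 0 near the 3′ end, and was named after its values were seen. Dpysl5, a collapsin response mediator gene, had the highest log2 fold at 4.82, 368 nt from the end, followed by Dclk1 (4.72 at 68717 nt), Sptbn1 (4.16 at 7541 nt) and Sptan1 (4.03 at 49075 nt) in the authors' deposited table. Synapse and vesicle release genes had 70 of 140 enriched in 20 of 32 genes, among them Nlgn2 (4.37), Syp (3.78) and Cplx1 (3.77) in the authors' deposited table.

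Secretory pathway genes had enriched clusters in 22 of 39 genes, 35 of 64 clusters (54.7%), and 22 of 34 on the gene's strand lay near the 3′ end (64.7%). Sec23a, a COPII coat gene, had 5 of 5 enriched, all within 2000 nt of the end, with a maximum log2 fold of 4.29 and no Puf60 cluster, in the authors' deposited table. Ssr1 (3.75), Sec24a (3.39) and Pdia6 (3.08) came next in the authors' deposited table. Deacetylase and DNA methylation genes had 71 of 125 (56.8%) in 15 of 24 genes, with Dnmt3a at 4.50, Sin3a at 4.16 and Rcor1 at 3.19 in the authors' deposited table, and 19.4% of the enriched clusters near the 3′ end.

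Ubiquitin enzyme genes had the lowest share of the 10 lists, 81 of 254 clusters (31.9%, median log2 fold 0.13 in the authors' deposited table), though 26 of 40 genes held an enriched one. Ube2h (4.69) and Ube2l3 (4.21), which encode ubiquitin-conjugating enzymes, led, with Herc1 and Ube3c (3.96) in the authors' deposited table. Wnt and Notch genes had 177 of 372 (47.6%), of which Maml3 accounts for 145 of 319, and 16 of 175 enriched clusters on the gene's strand lay near the 3′ end (9.14%), the lowest share of the 10 lists. The strongest cluster of Maml3 (3.87 in the authors' deposited table) lay 416091 nt from the 3′ end. Fzd3, a Wnt receptor gene, had 4.25 at 95 nt from the 3′ end, Gsk3b 4.15 at 683 nt and Jag2 3.63 at 808 nt, in the authors' deposited table. The lists differ in gene length and in how many clusters each gene holds, and none of these shares is called particular to a list.

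**Figure D5:**
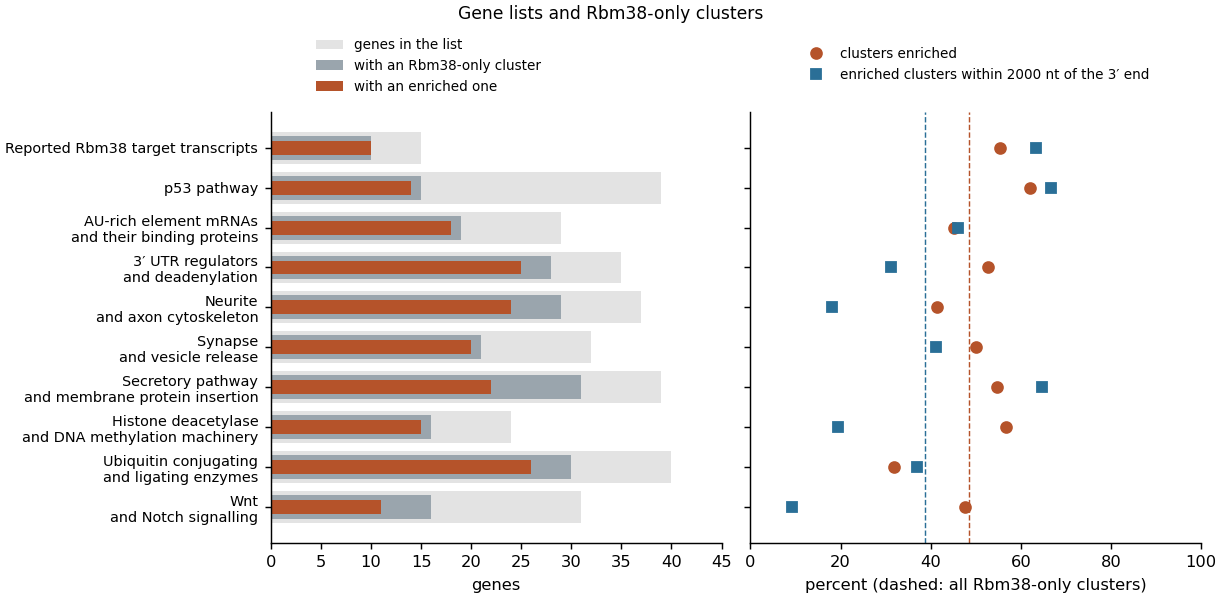
For 10 gene lists (y axis), the number of genes listed, with an Rbm38-only cluster and with an enriched one (left), and the percentage of clusters enriched and of enriched clusters within 2000 nt of the 3′ end (right), with dashed lines for the whole set at 48.6% and 38.7%. The enriched share runs from 31.9% in ubiquitin enzyme genes to 62.1% in p53 pathway genes.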

How the data were processed

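Tables of the authors' own comparisons were used, 1 per tagged protein, with 12 libraries behind them. Per the file headers, each cluster has a position, a log2 fold, a p-value and its adjusted value. The deposited log2 value was read as CLIP over size-matched input, which no header states. The authors' p-value columns were used as deposited. Of the selected clusters, 95 have no p-value, and 2613 with a p-value under 0.05 have an adjusted p of 1, for a reason that no source used here states. Among all selected clusters, log2 fold and p-value were the same pair as those of another cluster in 81.0% of cases (at most 86 clusters to a pair). Positions were taken as counted from 0 and are printed from 1. The submitters' processing notes name TopHat, edgeR, NCBIM37 and mm10 with no version or role; how clusters were called, compared with input or pooled over replicates is not stated there. The planned tests on values per library were not made, since 0 columns of such values were present; the authors' columns are described instead.

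Starts fall on a 50-nt grid with an offset of 0 or 35, read as plus and minus strand. RefSeq gene bodies (GRCm38.p6, 49997 genes) and the strands of RefSeq promoter windows placed the clusters: in genes with a RefSeq strand, 95.9% of 20023 selected clusters lay on it. Elsewhere a strand came from at least 3 clusters with 80% on 1 offset, a rule that gave the RefSeq strand in 95.4% of 3689 genes. Clusters on the opposite strand were left out of positions. Functions were tested on simulated data. Python 3.11.15, pandas 2.3.3, numpy 2.4.6 and SciPy 1.17.1 were used.

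The set, the lists and the motifs were chosen with earlier results of these data known. Named genes follow this rule: the 12 enriched clusters of highest log2 fold (1 per gene), the 10 genes with most clusters, the 5 lowest values, up to 4 genes per list, the 5 genes with most enriched clusters within 2000 nt of the 3′ end, up to 4 clusters each that touch or overlap a Puf60 cluster least, and the tagged genes. Some genes the rule names, and 1 sequence, are not reported here. The clusters whose sequence is printed were picked after their values were seen. Numbered and predicted genes, and clusters on the opposite strand, were left out of rankings. Alternatives were other overlap rules, thresholds, distances, and leaving out crowded genes.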

Additional observations from a re-analysis of the deposited data

How the results depend on the processing

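Counts and shares cannot change sign. Only the median log2 fold could, and it stayed positive under each alternative. Counts were held to stay if within 1.5 times, and shares and medians if within the value's own 95% interval, so that a small shift of a share counts as moved while a larger one of a count does not; by these limits 11 of 28 alternatives moved the value. The share of enriched Rbm38-only clusters near the 3′ end, 38.7% within 2000 nt, was 27.0% within 1000 nt and 52.5% within 5000 nt, 44.7% without genes of 50 or more clusters, 55.5% with 1 cluster per gene, 39.8% with RefSeq strands only and 33.3% with the adjustment computed again, the last 2 chosen after seeing the data. The median log2 fold, 1.05 in the authors' deposited table, was 1.75 with 1 value per gene, 1.15 without crowded genes, 1.22 where a Puf60 cluster had to cover 50% of the Rbm38 one, and 1.23 where only enriched Puf60 clusters counted. Clusters in genes without a Puf60 cluster numbered 2179, and 5285 where only enriched Puf60 clusters counted. The number of clusters lay between 20570 and 33588 under the overlap and gene rules, and that of enriched ones between 9970 and 17675 under the alternatives tried for it. Of enriched clusters with sequence, 47.1% held GTGTG where only 50-nt ones counted and 26.5% with the adjustment computed again, both chosen after seeing the data. No paired analysis was possible because the tables hold no values per library, and leaving out a replicate was not run for the same reason. Depth is unknown.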

Other observations

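A small part of the set lay antisense to the gene. Among 20023 Rbm38-only clusters in genes with a RefSeq strand, 820 lay on the opposite strand, and 426 of these were enriched (52.0%, median log2 fold 1.11), against 48.7% and a median of 1.08 for the 19203 on the gene's strand, from the authors' deposited table. Whether they come from antisense transcripts was not tested. Of 1005 RefSeq microRNA hairpins, 3 overlapped an Rbm38-only cluster on the same strand. These were Mir6914 in Ankrd52 (-0.20), Mir6944 in Dbn1 (-0.03) and Mir7033 in Pom121 (-0.61) in the authors' deposited table, and none of the 3 was enriched.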
